A study of Homo sapiens with 6 samples.

Results

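The genes described here are ISCU and 8 further genes of iron-sulfur cluster assembly (NFS1, LYRM4, HSCB, GLRX5, ISCA1, ISCA2, NFU1 and BOLA3). Every probe annotated to one of these symbols was taken, which gave 14 of the 48802 probes on the array, and each probe was kept on its own. ISCU was selected on the present signals, since it was lower at both of its probes under the miR-331-3p label, and the other genes were added for their place in the same pathway. LNCaP is a prostate cancer line that was grown from a metastatic lymph node and responds to androgen. Its cells received 30 nM of pre-miR-331-3p, a synthetic microRNA precursor, or of the control precursor pre-miR-NC by lipid transfection. Total RNA was taken at 24 h and hybridized to Illumina Human-6 v3 beadchips, 3 of them labelled miR-331-3p and the other 3 miR-NC, lettered A to C in each group. All arrays come from a single cell line, both groups received the transfection reagent and a small RNA, and the level of miR-331-3p itself was not measured on the array.

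Iron-sulfur clusters are small inorganic cofactors that carry electrons or hold substrates in enzymes of respiration, lipoate synthesis, DNA replication and iron sensing. They are built in mitochondria, where the desulfurase NFS1, held stable by LYRM4, passes sulfur to the scaffold protein ISCU, and the co-chaperone HSCB with the HSP70 chaperone HSPA9 releases the finished cluster to the carrier GLRX5. Later factors (ISCA1, ISCA2, NFU1 and BOLA3) form and hand over the larger clusters needed by lipoate synthase and the respiratory chain.

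ISCU is a well-known target of miR-210, a microRNA that was not transfected here, in human cells. Whether ISCU transcripts hold a site for miR-331-3p was not analysed here. The mature sequences of the microRNA transfected here and of miR-210 are shown because the seed, bases 2 to 8 and in capitals below, sets which transcripts a microRNA can pair with. Both are from RefSeq (GRCh38.p14), miR-331-3p at chr12:95308480-95308500 on the plus strand and miR-210-3p at chr11:568112-568133 on the minus strand, and their seeds are not the same.
hsa-miR-331-3p: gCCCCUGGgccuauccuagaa
hsa-miR-210-3p: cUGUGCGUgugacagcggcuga

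Signals are the authors' log2 values, background corrected, variance stabilized and quantile normalized, and run from 6.52 to 13.94 over all probes. Correlations between arrays were 0.982 to 0.996 over the 16752 probes whose mean reached 7, the minimum signal for a test, and 13 of the 14 probes reached it. Of the markers of luminal prostate cells and LNCaP with a probe named here (KLK2, KLK3, TMPRSS2, FOLH1 and KRT18), all 5 lay above the minimum, at mean signals from 8.27 to 12.69 at the brightest probe of each. Their summed log2 signal was 52.31 to 52.81 in the arrays labelled miR-331-3p, against 51.60 to 51.80 in those labelled miR-NC. The markers moved both ways: TMPRSS2 and KLK2 were higher, by 0.53 and 0.33 on the log2 scale (adjusted p = 0.0023 and 0.015 from limma). Both FOLH1 probes were also higher, the brighter by 0.23 and the dimmer by 0.25, without passing the threshold. KLK3 was lower, with -0.23 (adjusted p = 0.16 from limma). KRT18 differed by 0.04 where it was brightest, and by -0.26 and -0.23 where it was dimmer. In those dimmer readings miR-331-3p replicate C was the lowest array, with 7.17 and 7.27. No KLK3 or KRT18 probe passed the threshold. The part of these markers in the results below was not tested. The markers of basal cells, fibroblasts, leukocytes and endothelial cells with a named probe lay under the minimum except COL1A1 and PECAM1, at 7.24 and 7.10. Nothing in the sources ties an array to a separate culture, so p-values reflect only how these arrays varied, which may be technical. All signs follow the labels and give the miR-331-3p label minus the miR-NC label. ERBB2, RALA and DOHH had log2 differences of 1.11, 0.96 and 0.66, ERBB2 at its single tested probe (its others, under the minimum, had -0.11 and -0.09). The study gives these genes as lower after transfection of the microRNA, by array and by RT-qPCR. It also gives RALA as a direct target by reporter assays, and ERBB2 and DOHH as targets its authors had described before. The signs here run opposite to its direction. The folds here, miR-331-3p label over miR-NC label, were 2.16, 1.94 and 1.58, close in size to the array decreases it lists. Which direction holds was not tested. If the labels of both groups were exchanged, each sign given below would turn, and ISCU would be higher after pre-miR-331-3p.

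ISCU was lower under the miR-331-3p label at both probes, by close to 1 on the log2 scale at the brighter one. Its brighter probe (ILMN_2409062, annotated to NM_213595) had log2 signals of 10.18, 10.15 and 10.14 in the arrays labelled miR-331-3p, against 11.11, 11.06 and 11.22 in those labelled miR-NC. The groups were separated by a gap of 0.88, several times the spread within either group, and the miR-331-3p arrays lay close together. Group means were 10.16 ± 0.023 and 11.13 ± 0.083 (SD, n = 3 each), a log2 difference of -0.97 (standard error 0.074), which places the labelled miR-331-3p signal at 0.51 of the miR-NC signal. In a lysate of many cells, a lower signal in every cell and a loss from some of them cannot be told apart.

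The dimmer ISCU probe (ILMN_1735432, annotated to NM_014301) had log2 signals of 8.45, 8.16 and 8.44 in the arrays labelled miR-331-3p, against 9.16, 8.97 and 9.15 in those labelled miR-NC. Array B was the lowest of its group on both sides, and the groups again did not overlap, with a gap of 0.52. Group means were 8.35 ± 0.16 and 9.09 ± 0.11 (SD, n = 3 each), a log2 difference of -0.75 (standard error 0.096). Since these values chose ISCU, they are a description and carry no test. Both probes are annotated to different RefSeq transcripts of the gene, which makes a mitochondrial and a cytosolic form by alternative splicing. Which exons each probe reads was not analysed here, and the difference between the probes was not tested. Among all 16752 probes tested, 11 had a lower difference than the brighter probe, which stood at rank 12 from the lowest, and the dimmer stood at rank 44. A signal lower by at least 1.5 fold was found at 0.651% of the probes tested. With the labels exchanged, the same ranks would count from the highest difference and the same share would be higher.

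**Figure D1:**
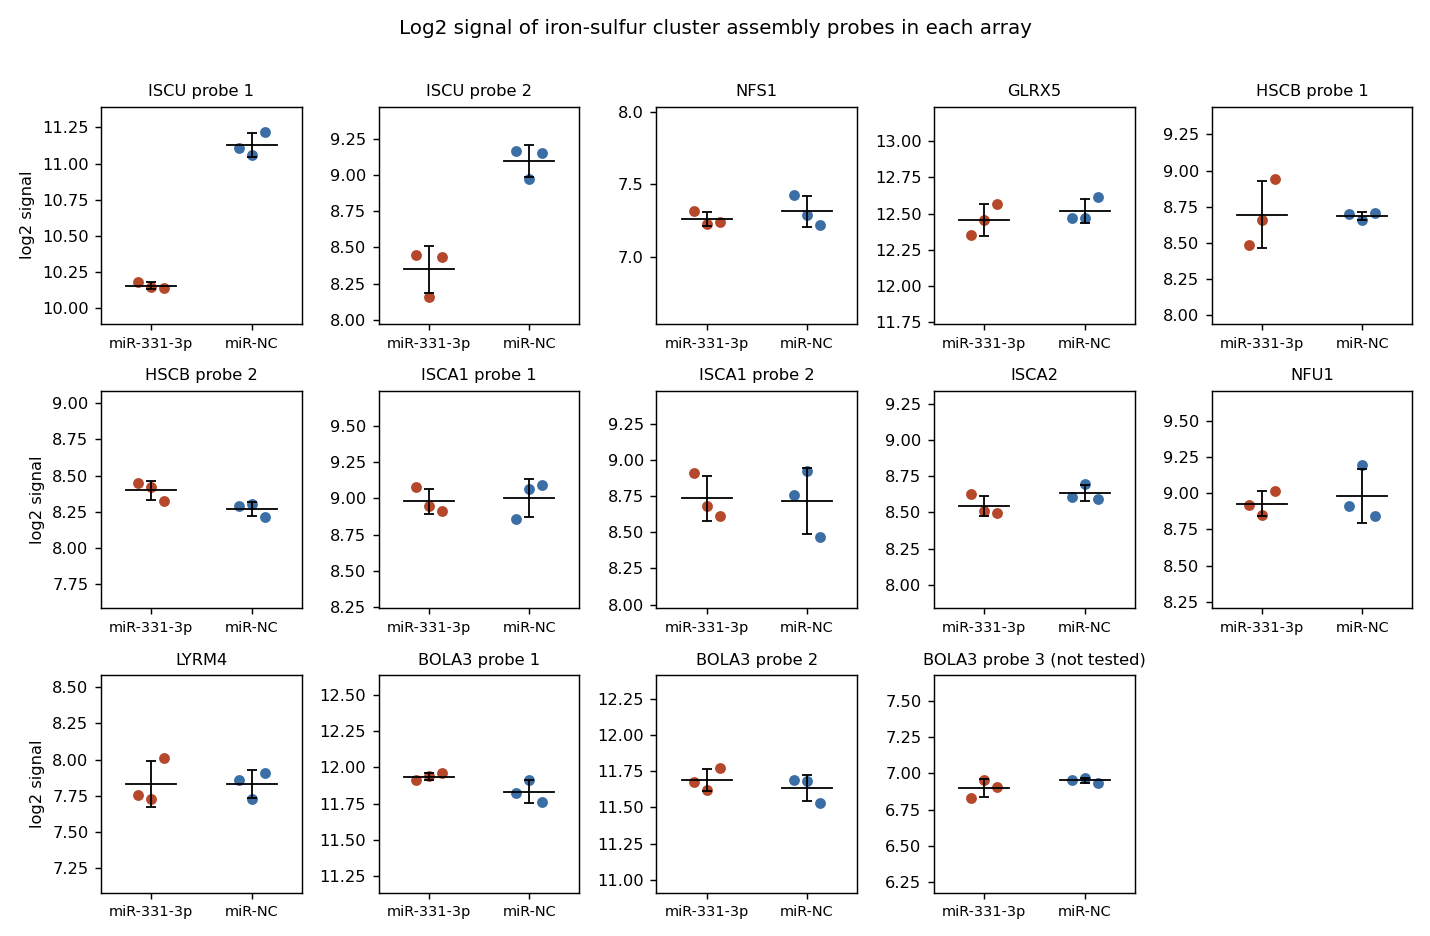
Log2 signal (vertical axis, each panel spanning 1.5 units around the probe's mean) of the 14 probes in arrays labelled miR-331-3p (red, left, n = 3) and arrays labelled miR-NC (blue, right, n = 3), arrays A to C from left to right within a group. Lines and bars give the group mean ± SD. At both ISCU probes the groups are apart by 0.52 or more, and at 1 other probe, the dimmer of HSCB, they are apart by 0.019.

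No probe of the 8 other members passed limma's test (0 of 11 tested, against 7.96% of all probes tested, of which 4.30% were higher and 3.66% lower). At an unadjusted p under 0.05 the count was also 0 of 11 by limma, against 22.1% of all probes tested. The methods' t-test gave 1 of 11 before adjustment, against 17.9% of all probes tested, and 0 of 11 after it, against 0.979%. The log2 differences of these 11 probes ran from -0.09 to 0.13, with 6 negative and 5 positive, at standard errors from 0.073 to 0.12. Their adjusted p from limma ran from 0.35 to 0.99. Missing the threshold does not show that the genes stayed level. The 95% intervals, each for a single probe, ran from -0.27 to 0.29, and the largest fold that any of them reached was 1.22, at HSCB. They cover only how these arrays varied, so they do not bound a change between separate cultures. By overlap, 1 of the 11 probes had its groups fully apart, against 26.7% of all probes tested.

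The desulfurase step had small differences. NFS1, which takes sulfur from cysteine, had log2 signals of 7.32, 7.23 and 7.24 in the arrays labelled miR-331-3p, against 7.43, 7.29 and 7.22 in those labelled miR-NC. The groups overlapped, the difference was -0.05 (95% interval -0.22 to 0.12, adjusted p = 0.77 from limma), and the signal was near the minimum, where the transformation of low values can understate a fold. LYRM4, also known as ISD11, which binds and stabilizes NFS1, had 7.75, 7.73 and 8.01 in the arrays labelled miR-331-3p, against 7.86, 7.73 and 7.91 in those labelled miR-NC. Its difference was -0.0020 (95% interval -0.21 to 0.20, adjusted p = 0.99 from limma), with array C the highest in both groups.

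The release and transfer of the cluster involve HSCB and GLRX5. HSCB, the J-domain co-chaperone that binds ISCU, was read by 2 probes. At the brighter one it had 8.49, 8.66 and 8.94 in the arrays labelled miR-331-3p, against 8.70, 8.66 and 8.70 in those labelled miR-NC. The miR-331-3p arrays were far more spread (SD 0.23, against 0.027), and the difference was 0.0078 (95% interval -0.22 to 0.24, adjusted p = 0.98 from limma). At the dimmer probe HSCB had 8.45, 8.42 and 8.33 in the arrays labelled miR-331-3p, against 8.29, 8.31 and 8.22 in those labelled miR-NC. Here every miR-331-3p array lay above every miR-NC array, although only by a gap of 0.019, and the difference of 0.13 did not pass (95% interval -0.03 to 0.29, adjusted p = 0.35 from limma). An exact permutation test of 3 arrays against 3 cannot go below p = 0.1. GLRX5, the monothiol glutaredoxin that carries clusters away from ISCU, had 12.35, 12.46 and 12.57 in the arrays labelled miR-331-3p, against 12.47, 12.47 and 12.62 in those labelled miR-NC. The groups overlapped, with a difference of -0.06 (95% interval -0.24 to 0.12, adjusted p = 0.74 from limma).

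The late factors ISCA1 and ISCA2, A-type proteins that act together in making the larger clusters, also overlapped between groups. ISCA1 had 9.08, 8.94 and 8.91 in the arrays labelled miR-331-3p at its brighter probe, against 8.86, 9.06 and 9.09 in those labelled miR-NC, and 8.91, 8.68 and 8.61 at its dimmer probe, against 8.76, 8.92 and 8.47. The order of the arrays differed between the ISCA1 probes, and their differences were -0.02 and 0.02 (adjusted p = 0.91 and 0.95 from limma). ISCA2 had 8.62, 8.51 and 8.50 in the arrays labelled miR-331-3p, against 8.61, 8.69 and 8.59 in those labelled miR-NC. Its difference of -0.09 (95% interval -0.25 to 0.08, adjusted p = 0.56 from limma) was the most negative outside ISCU, and its groups overlapped.

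NFU1 and BOLA3 hand the larger clusters on, among others to the enzyme that makes lipoate. NFU1, whose older alias is HIRIP5, had 8.92, 8.85 and 9.02 in the arrays labelled miR-331-3p, against 8.91, 9.19 and 8.84 in those labelled miR-NC. A single miR-NC array, B, lay above all others, and the difference was -0.05 (95% interval -0.27 to 0.16, adjusted p = 0.81 from limma). BOLA3 had 11.91, 11.94 and 11.96 at its brightest probe in the arrays labelled miR-331-3p, against 11.82, 11.91 and 11.76 in those labelled miR-NC. All but miR-NC replicate B lay below the miR-331-3p arrays, with a difference of 0.10 (95% interval -0.06 to 0.26, adjusted p = 0.46 from limma). The second BOLA3 probe differed by 0.06 (adjusted p = 0.75 from limma). The remaining BOLA3 probe lay under the minimum and was not tested, at 6.90 ± 0.063 under the miR-331-3p label and 6.95 ± 0.018 under the miR-NC label (SD, n = 3 each). RefSeq names pseudogene copies of ISCU, GLRX5, ISCA1, ISCA2, NFU1 and BOLA3. Whether a probe also reads such a copy was not tested.

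**Figure D2:**
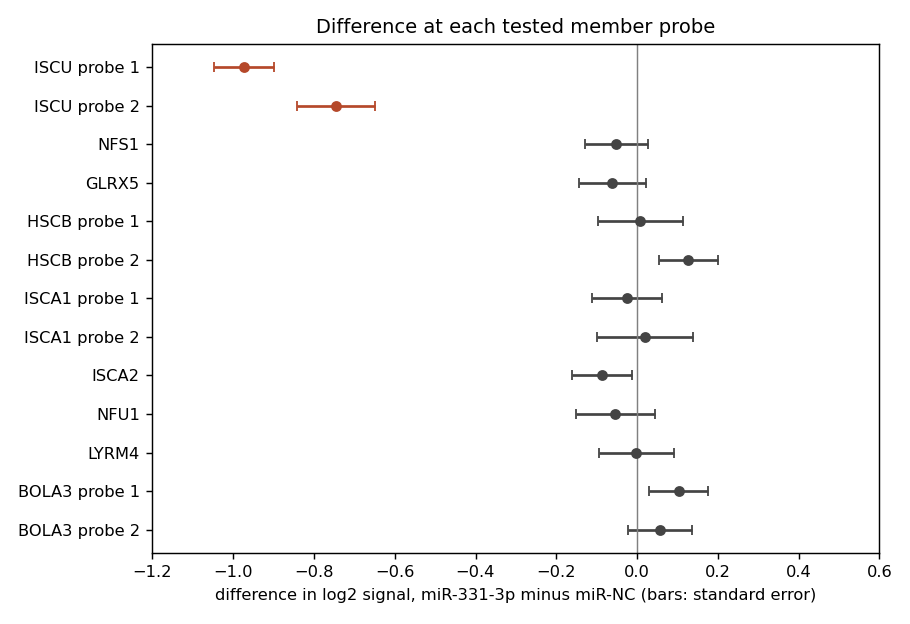
Difference in log2 signal (horizontal axis, arrays labelled miR-331-3p minus arrays labelled miR-NC) at the 13 tested probes, with limma's standard error as bars and probes of a gene numbered from the brightest. ISCU, in red, lies at -0.97 and -0.75, and the 11 probes of the other members lie between -0.09 and 0.13.

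The partners, recipients and iron supply of the pathway were followed through 6 lists of 76 genes, of which 66 had a named probe and 60 had one tested. Of these 60 genes, 1 was higher and 2 were lower under the miR-331-3p label at an adjusted p of 0.05 from limma. By probe that is 3 of 80, or 3.75%, against 7.96% of all probes tested. The median difference over the 60 genes, each at its brightest tested probe, was -0.05. Over all probes tested, where a gene can count more than once, it was -0.0028. The 10 genes without a named probe were not analysed here.

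Of 10 tested mitochondrial partners of the assembly machinery, 0 passed limma's test, with a median of -0.07 (1 of 10 probes at an unadjusted p under 0.05 by limma, against 22.1% of all probes, and 0 after adjustment and 1 before it by the methods' t-test, against 0.979% and 17.9%). HSPA9, the chaperone that works with HSCB on ISCU, had 11.53, 11.57 and 11.62 in the arrays labelled miR-331-3p, against 11.73, 11.83 and 11.85 in those labelled miR-NC. Its groups did not overlap, which also held for 26.7% of all probes tested. The difference at this probe was -0.23 (95% interval -0.39 to -0.07, adjusted p = 0.086 from limma). A further HSPA9 probe, under the minimum, had -0.02 with overlapping groups. With array weights HSPA9 passed, at -0.25 (adjusted p = 0.042 from limma, and up to 0.25 over the other alternatives). FDX2 and FDX1, ferredoxins of which FDX2 feeds electrons to cluster synthesis, had differences of -0.14 and 0.08 (adjusted p = 0.38 and 0.62 from limma). SLC25A37 and SLC25A28, the carriers that bring iron into mitochondria, had -0.03 and -0.0081.

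The cytosolic assembly machinery builds clusters outside mitochondria, and 1 of its 15 tested probes passed (6.67%, against 7.96% of all probes tested). Of its 9 tested genes, 1 was lower and none was higher, with a median of -0.01. This was CIAO2A, the targeting factor that matures the iron sensor ACO1, with 11.75, 11.78 and 11.46 in the arrays labelled miR-331-3p, against 12.14, 12.00 and 12.03 in those labelled miR-NC. The groups did not overlap, and limma gave a difference of -0.40 ± 0.095 (standard error) at an adjusted p of 0.027. This call was lost without a minimum signal (adjusted p = 0.054), by the methods' t-test (adjusted p = 0.20) and on leaving out any single miR-NC array (0.10, 0.075 and 0.083 without A, B and C). Its dimmer probe had -0.22 and did not pass (adjusted p = 0.15 from limma). CIAO2B, the related factor of the general targeting complex, had 0.01, and MMS19 of the same complex -0.01. BOLA2, which works with GLRX3, has a near-identical copy, BOLA2B, that its probes may also read.

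Among proteins that hold clusters in mitochondria, 0 of 10 tested genes passed limma's test, with a median of -0.08 (3 of 14 probes at an unadjusted p under 0.05 by limma, against 22.1% of all probes, and 0 after adjustment and 2 before it by the methods' t-test, against 0.979% and 17.9%). FECH, the ferrochelatase that inserts iron to form heme, had the lowest adjusted p of this list, 0.065 from limma. This was at its brightest probe, with a difference of -0.32, and the adjusted p from limma was 0.039 with the replicate block. Its other tested probe had -0.09 (adjusted p = 0.57 from limma), with overlapping groups, and a further probe under the minimum had 0.05. LIAS, the lipoate synthase that NFU1 and BOLA3 serve, was read by a pair of probes, at -0.18 (adjusted p = 0.20) and -0.13 (adjusted p = 0.37 from limma). The subunits of complex I that hold clusters (NDUFS1, NDUFS7, NDUFS8, NDUFV1 and NDUFV2) had differences from -0.13 to 0.18, none past the threshold. In the lipoylation list, 0 of 6 tested genes passed, with a median of 0.02 (0 of 8 probes at an unadjusted p under 0.05 by limma, against 22.1% of all probes, and by the methods' t-test, against 17.9%).

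Of 20 tested cluster proteins of cytosol and nucleus, 1 was lower and none was higher, with a median of -0.06. By probe the count was 1 of 27, or 3.70%, against 7.96% of all probes tested. PPAT, the amidotransferase that begins purine synthesis, had 9.59, 9.46 and 9.39 in the arrays labelled miR-331-3p, against 9.86, 9.85 and 10.04 in those labelled miR-NC. All 3 miR-331-3p arrays lay below all 3 miR-NC arrays, and limma gave a difference of -0.44 ± 0.084 (standard error) at an adjusted p of 0.0098. The call was lost by the methods' t-test (adjusted p = 0.12) and without miR-NC replicate C (-0.38, adjusted p = 0.055). ACO1, the cytosolic aconitase that becomes an iron-regulatory protein when it lacks its cluster, had a difference of -0.04 (adjusted p = 0.85 from limma).

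In the list of iron supply and its control, 1 of 5 tested genes was higher and none was lower, with a median of -0.06. By probe the count was 1 of 6, or 16.7%, against 7.96% of all probes tested. SLC11A2, the iron transporter DMT1, had 10.98, 11.07 and 10.94 in the arrays labelled miR-331-3p, against 10.49, 10.52 and 10.56 in those labelled miR-NC. The groups were apart by 0.38, and limma gave a difference of 0.47 ± 0.072 (standard error) at an adjusted p of 0.0026. It passed under each of the 13 alternatives, at adjusted p from 0.00065 to 0.047. TFRC, the transferrin receptor, had a difference of 0.10 (adjusted p = 0.51 from limma). FBXL5, the iron-sensing ubiquitin ligase subunit, had -0.20 at its brightest probe (adjusted p = 0.30 from limma). Its other tested probe had -0.02 (adjusted p = 0.93 from limma), and a further probe under the minimum had -0.07.

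**Figure D3:**
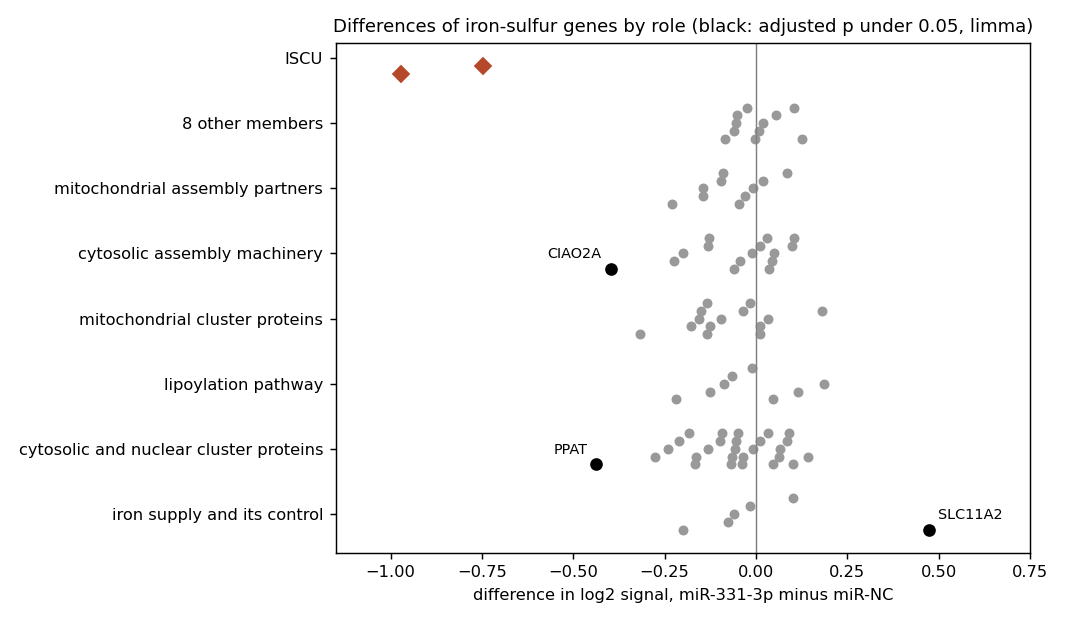
Difference in log2 signal (horizontal axis, arrays labelled miR-331-3p minus arrays labelled miR-NC) of every tested probe, in rows by role. Diamonds are the ISCU probes, which carry no test, and black points passed an adjusted p of 0.05 from limma: CIAO2A at -0.40, PPAT at -0.44 and SLC11A2 at 0.47.

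The named probes whose pattern over the 6 arrays was most like that of ISCU were sought among the probes tested, by the root mean square distance between log2 profiles after each probe's mean was taken off. They were ERLIN2, which encodes a protein of endoplasmic reticulum rafts, at a distance of 0.036, DICER1, the enzyme that cuts microRNA precursors, at 0.050, and TJP1, a tight junction scaffold, at 0.066. PRRC2C, TMEM248 and C12orf76 followed at 0.074, 0.086 and 0.10. The median distance over all probes tested was 0.50. Each of these probes was lower under the miR-331-3p label, from -1.03 at ERLIN2 to -0.93 at TJP1, since a profile near that of ISCU must carry its group difference. ISCU's own dimmer probe was farther off, at 0.15 and rank 26 of 16751, and no other member was among the 6. Both follow largely from the group differences given above, so they add no separate evidence.

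**Figure D4:**
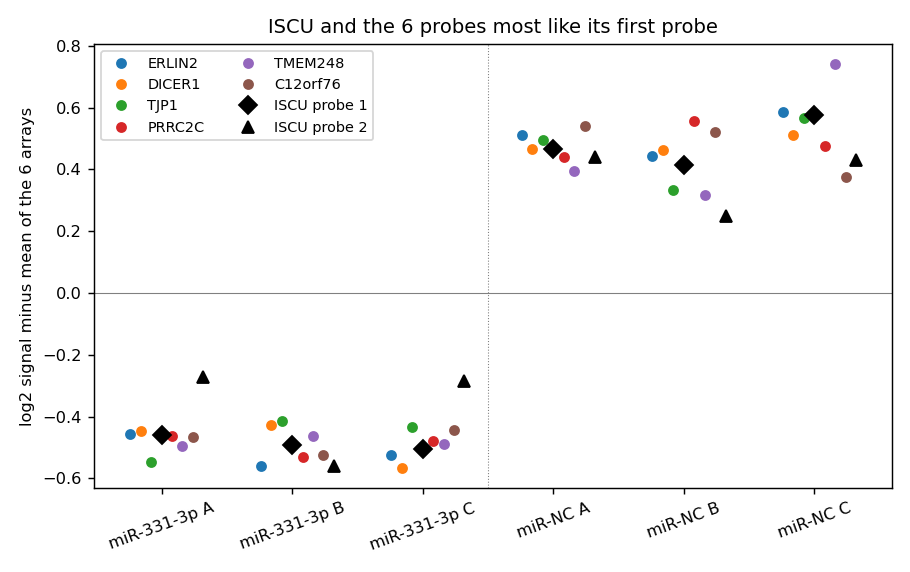
Log2 signal minus the probe's mean over the 6 arrays (vertical axis) in each array (horizontal axis) for both ISCU probes, in black, and the 6 named probes nearest to the brighter one, ISCU probe 1. All 8 probes lie below 0 in every array labelled miR-331-3p and above 0 in every array labelled miR-NC.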

How the data were processed

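The authors deposited log2 signals of 6 Illumina Human-6 v3 arrays, made from raw signals by background correction and variance stabilization in lumi and quantile normalization in Partek Genomics Suite, per the paper's methods. A raw table has 12 columns that no label ties to a sample, and they were not used. Gene names came from the annotation of the platform, and 27540 of the 27577 probes with a single symbol took the current RefSeq symbol (GRCh38.p14) of their gene identifier. Probes with a mean of at least 7 were tested with limma 3.58.1 (lmFit and eBayes, no block) under R 4.3.3. The tests were two-sided, and p-values were adjusted by Benjamini-Hochberg over all 16752 probes, at a threshold of 0.05. The methods' Student's t-test was an alternative, beside the minimum signal, array weights, a replicate block, cyclic loess, an intensity trend and leaving out each array. The code was tested on simulated data. In lists, the brightest probe stood for its gene in medians, and any probe in counts. Named were all members, list genes past the threshold, genes chosen by role (HSPA9, FDX1, FDX2, ACO1 and LIAS, with others not reported here) and the 6 probes nearest to ISCU. Other list genes (FECH, NDUFS and NDUFV subunits, CIAO2B, MMS19, TFRC, FBXL5, SLC25A37, SLC25A28, CIAPIN1, DLAT and TYW1) were added after their values were seen. The members and lists were chosen with earlier results of these data known. The number of arrays limits the precision.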

Additional observations from a re-analysis of the deposited data

How the results depend on the processing

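Of the 13 alternatives, 5 (the minimum signals, the t-test, the block and the trend) cannot move a difference between group means. Under the 8 others the ISCU differences ran from -1.01 to -0.93 at the brighter probe and from -0.81 to -0.65 at the dimmer, a description of the values that selected ISCU. For the 8 other members, 0 of the probes tested were called in either direction under each alternative (NFS1 was not tested at a minimum of 7.5), while 6 of their 11 probes, with differences near 0, changed sign in at least 1. Over all probes, 720 were called higher and 613 lower. The methods' t-test gave 115 and 49, the fits without 1 array gave 363 to 765 higher and 263 to 697 lower (459 and 325 without miR-331-3p replicate B, 423 and 325 without miR-NC replicate A, 385 and 263 without B, 363 and 269 without C), and the other settings stayed within 1.5 times. The list genes called lower numbered 2, against 1 without a minimum signal, 0 by the methods' t-test, 4 with array weights and 0 to 4 on leaving out arrays. HSPA9 and TYW1 were added with array weights, TYW1 and CIAPIN1 without miR-331-3p replicate C, and DLAT without miR-331-3p replicate B. CIAO2A was lost without miR-NC replicate A or B, and both CIAO2A and PPAT without miR-NC replicate C. The 1 called higher, SLC11A2, was called in all. The letters A to C do not pair the arrays by any source, and deviations from the group means correlated by -0.04 (A), 0.02 (B) and 0.22 (C) between arrays of the same letter, with only the C arrays correlating best with their own letter. With the replicate block, 742 probes were called higher and 670 lower, 0 of the 8 other members passed, and FECH was added to the list genes called lower, making 3. The causes of these changes were not tested. Signals near 7 limit what can be read of NFS1 and of other dim probes.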
